A study of Homo sapiens with 12 samples.

Results

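Cholesterol and fatty acid metabolism genes were followed in the established human glioblastoma line U251 after siRNA against the transcription factor genes ETV6 and NFKB1. The set was a list of 42 genes for sterol synthesis, sterol sensing, cholesterol transport, and fatty acid synthesis and use. Of these, 37 had a probe set that names 1 gene in the platform's probe table, among 10346 such genes in all. FDFT1, CYP51A1, NR1H2, FADS1 and ACSL3 were not analysed here. A gene with several probe sets was read on its brightest one, judged by the mean of the 12 arrays. That choice used the overall mean and not the differences between groups, but the list itself was made with earlier results of these data known. MVD and STARD4 lay below the filter on low genes, a mean log2 level of 7.54 (the 25th percentile), so 35 of the 42 were tested among 7760 genes.

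The 12 arrays fell into 4 groups of 3. Control cells received a siRNA that matches no known human transcript, and the other groups received ETV6 siRNA, NFKB1 siRNA or both, here called double siRNA. The siRNAs were pools of several duplexes against one gene, each pool used at 50 nM and transfected transiently. The control was used at the same concentration, and a control for the summed amount of the double transfection was not given in the sources used here. Values are log2 probe set levels, so a difference of 1 is a doubling, and the number of arrays limits their precision. The labels do not state whether replicate arrays stand for independent cultures. The p-values therefore describe the spread among these arrays, which may be technical.

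Cells make cholesterol from acetyl-CoA through the mevalonate pathway and a longer branch that closes and trims the sterol rings. Its genes are switched on by the SREBP transcription factors, encoded by SREBF1 and SREBF2, which sit in the endoplasmic reticulum with the escort protein SCAP and are held there by INSIG proteins when sterols are plentiful. SREBP-1 also drives fatty acid synthesis and desaturation, while liver X receptors, which bind oxysterols, switch on SREBF1 and the cholesterol exporter ABCA1. Glioblastoma cells are known to depend on cholesterol uptake and on SREBP-1.

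The siRNAs lowered their targets. ETV6 read 9.02, 9.02 and 8.58 in control arrays, 6.80, 6.78 and 6.60 with ETV6 siRNA and 7.44, 7.36 and 7.29 with double siRNA, which left 22.6% and 35.1% of the control level. NFKB1 read 7.22, 7.24 and 7.49 in control arrays, 6.95, 6.75 and 6.05 with NFKB1 siRNA and 6.50, 6.58 and 6.57 with double siRNA, or 60.3% and 58.8% of control. Those NFKB1 values lay below the filter level. With ETV6 siRNA alone NFKB1 read 7.85, 7.74 and 7.85, all above the controls (141% of control, limma adjusted p = 0.104). Of 10 listed glial markers 8 had a probe set, and these 8 were above that level (means 8.68 to 14.50). Of 18 listed markers of epithelial, immune, endothelial, neuronal, oligodendrocyte or liver cells 3 had a probe set, and only KRT18 (7.83) lay above it. The double siRNA arrays stood apart in their added poly-A control RNAs, with a mean of 7.97 to 8.05 over 24 probe sets against 8.37 to 9.35 in the other 9 arrays. In total RNA from a whole culture, fewer cells of one kind and less RNA per cell cannot be told apart.

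A few promoter stretches are shown because ETV6 binds ETS elements and NFKB1 makes the p50 subunit of NF-kB: IDI1 for its ETS elements, both SREBP genes for the NF-kB consensus, and SREBF2 and ACSL1 for the sterol regulatory element. The NF-kB matches of other members, INSIG2 among them, are not shown. Promoter windows of 300 bases (250 before and 50 after a start) from RefSeq, build GRCh38.p14, matched 34 of the listed genes with 51 windows. The windows were searched on both strands for exact letters, and matches of different motifs may overlap. The ETS element CCGGAAGT occurred in 1.96% of these windows and in 4.14% of all 35116 windows. That window was 1 of 3 windows of IDI1, isopentenyl diphosphate isomerase. It held 3 matches, on the minus strand of chromosome 10 (chr10:1056705-1056830). The NF-kB consensus occurred in 17.6% of the lipid gene windows and 11.3% of all windows. SREBF1, on the minus strand (chr17:17837072-17837121), and SREBF2, on the plus strand (chr22:41832952-41833104), each held one that reads on both strands. The SREBF2 stretch also held the sterol regulatory element TCACNCCAC, found in 3.92% of lipid gene windows and 1.13% of all. Capitals mark the matches, and each stretch is given 5′ to 3′ on the gene's strand.
IDI1: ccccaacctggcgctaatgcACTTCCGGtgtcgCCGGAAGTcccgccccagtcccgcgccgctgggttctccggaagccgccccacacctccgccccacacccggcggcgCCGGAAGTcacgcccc
SREBF1: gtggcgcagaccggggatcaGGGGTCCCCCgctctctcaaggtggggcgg
SREBF2: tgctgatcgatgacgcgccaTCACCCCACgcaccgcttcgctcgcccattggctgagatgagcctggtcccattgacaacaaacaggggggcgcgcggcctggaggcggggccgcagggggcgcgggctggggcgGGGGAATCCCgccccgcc
In ACSL1, a fatty acid activating ligase, the sterol regulatory element lay on the other strand of one window (chr4:184805767-184805803).
ACSL1: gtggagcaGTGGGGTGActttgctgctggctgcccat
CCAAT boxes were in 52.9% of lipid gene windows against 34.6% of all, GC boxes (GGGCGG) in 80.4% against 45.0%, and E-boxes (CACGTG) in 13.7% against 7.26%. These matches are a description of the letters, not of binding.

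With NFKB1 siRNA, ACSL4, LPIN1, ACSL1, ABCA1 and ELOVL6 fell, ABCA1 by 0.88 and ACSL4 by 1.53 on the log2 scale. SREBF1, FADS2, TM7SF2 and INSIG1 rose, SREBF1 1.58-fold and FADS2 1.53-fold. These 9 genes passed the test in every alternative setting tried. In all, 6 of 35 members rose (17.1%) and 9 fell (25.7%), against 15.5% and 25.1% of all genes tested. In the deposited values the shares were thus near the background. The test was limma with Benjamini-Hochberg adjustment over 7760 genes, and a change here means an adjusted p under 0.05. The median difference of the members was 0.05, and that of all genes 0.01.

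Among the sterol regulators, SREBF1 read 9.30, 9.32 and 9.46 in control arrays and 10.09, 10.09 and 9.88 with NFKB1 siRNA. All 3 knock-down arrays lay above all 3 controls (difference 0.66, SE 0.085, adjusted p = 0.000141). INSIG1, which retains the SREBP-SCAP complex and is itself an SREBP target, read 12.22, 12.28 and 12.43 in control arrays and 12.58, 12.61 and 12.67 with NFKB1 siRNA (difference 0.30, SE 0.056, adjusted p = 0.00145). The INSIG1 groups did not overlap, although control replicate 3 came close. The other 3 regulators tested did not pass, with differences of 0.25 for INSIG2 (95% interval 0.00 to 0.50), 0.14 for SCAP (-0.04 to 0.32) and 0.05 for SREBF2 (-0.15 to 0.25). SREBF2 encodes the SREBP that mainly serves cholesterol synthesis. The direct test of SREBF1 against SREBF2 was not run.

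The cholesterol exporter ABCA1 had its clearest fall with NFKB1 siRNA. It read 9.65, 9.52 and 9.61 in control arrays, 9.48, 9.69 and 9.45 with ETV6 siRNA, 8.78, 8.63 and 8.72 with NFKB1 siRNA, and 10.24, 10.20 and 10.24 with double siRNA. The NFKB1 siRNA arrays were the lowest of the 12 and the double siRNA arrays the highest. The fall was 1.85-fold (difference -0.88, SE 0.067, adjusted p = 4.64e-06), and a second ABCA1 probe set gave -0.71. NPC1, which moves cholesterol out of lysosomes, fell by 0.21 on the log2 scale (adjusted p = 0.01), but this call was lost when each array was shifted to the same median (-0.12, adjusted p = 0.109). NPC2, its soluble partner, differed by 0.09 (95% interval -0.02 to 0.19).

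Fatty acid genes moved in both directions with NFKB1 siRNA. ACSL4, a ligase that activates arachidonate and related polyunsaturated fatty acids, read 8.05, 7.70 and 8.57 in control arrays and 6.71, 6.91 and 6.11 with NFKB1 siRNA. The groups did not overlap, and the fall of 2.89-fold was the largest among the 35 members in this comparison (SE 0.23 log2, adjusted p = 0.000399). All 3 NFKB1 siRNA arrays read below the filter level of 7.54, so ACSL4 folds taken against them may be compressed or imprecise. ELOVL6, which elongates 16-carbon fatty acids, read 8.53, 8.56 and 8.98 in control arrays and 8.30, 8.18 and 8.04 with NFKB1 siRNA. It fell 1.43-fold (adjusted p = 0.00427), and its other 2 probe sets gave -0.75 and -0.68. ACSL1 fell from 8.40, 8.39 and 8.45 to 8.05, 8.03 and 7.80 (difference -0.45, SE 0.071, adjusted p = 0.000548). LPIN1, a phosphatidate phosphatase on the route to triacylglycerol, fell from 10.55, 10.60 and 10.71 to 10.18, 10.18 and 10.23 (difference -0.42, SE 0.058, adjusted p = 0.000214). CPT1A, the carnitine transferase that admits fatty acids to mitochondria, differed by -0.15 and did not pass (95% interval -0.30 to 0.01).

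FADS2, the delta-6 desaturase of polyunsaturated fatty acid synthesis, went the other way. It read 9.56, 9.71 and 9.59 in control arrays and 10.20, 10.23 and 10.26 with NFKB1 siRNA (difference 0.61, SE 0.074, adjusted p = 9.82e-05). The FADS2 groups were well apart. FASN, the fatty acid synthase, differed by 0.31 (95% interval 0.05 to 0.57, limma adjusted p = 0.0559). ACLY, which makes cytosolic acetyl-CoA, differed by 0.10, and ACACA, the acetyl-CoA carboxylase, by -0.01. None passed the threshold in the main test, but FASN did in 7 of 23 alternative settings. The dimmer ACLY probe sets gave 0.46 and 0.35. ACLY passed in 5 of 23 settings, with its probe sets averaged among them (0.30).

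Among the synthesis enzymes for sterols NFKB1 siRNA made small changes. TM7SF2, a sterol C14 reductase, read 7.68, 7.77 and 7.57 in control arrays and 8.33, 8.29 and 8.05 with NFKB1 siRNA (difference 0.55, SE 0.089, adjusted p = 0.00063), with no overlap. In the sterol branch 2 of 9 tested genes rose (22.2%, beside 15.5% of all genes tested), and 8 of the 9 differences were above 0 (median 0.15). The median of all genes was 0.01, and 0.10 when each array was shifted to the same median. HSD17B7, a sterol ketoreductase, rose by 0.20, and FDPS, the farnesyl diphosphate synthase, also by 0.20, but both calls were lost under some settings, 14 of 23 for HSD17B7 and 11 of 23 for FDPS. HMGCS1, the first committed enzyme of the mevalonate pathway, fell from 8.34, 8.53 and 8.97 to 8.12, 8.21 and 8.36, with overlapping groups (adjusted p = 0.0365). Without control replicate 3, the highest control, the HMGCS1 difference was -0.20 and not past the threshold, and its second probe set gave 0.11.

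**Figure D1:**
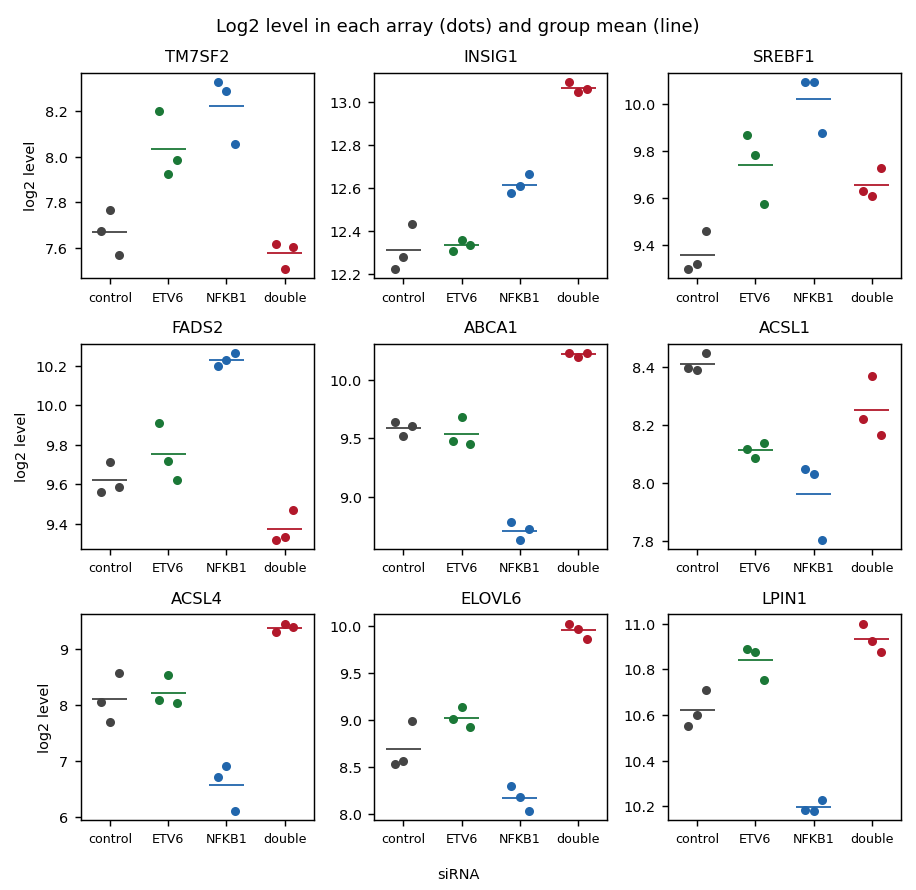
Log2 level (vertical axis, own range in each panel) in each of 12 arrays (dots) with the group mean (line), by siRNA group. The 9 lipid genes shown changed with NFKB1 siRNA in every setting that tested them. By group mean ABCA1, ACSL4, ELOVL6 and LPIN1 were lowest with NFKB1 siRNA and highest with double siRNA, whereas FADS2 and TM7SF2 were highest with NFKB1 siRNA.

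The scale of the arrays mattered for counts in this comparison. In the deposited values 38.1% of all genes that changed with NFKB1 siRNA were higher, and 62.2% were when each array was shifted to the same median. The split of the lipid members then went from 6 higher and 9 lower to 16 higher and 7 lower of 35. That of all 7760 genes tested went from 1200 higher and 1948 lower to 2429 higher and 1476 lower.

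ETV6 siRNA alone changed few lipid genes, and none of those calls held in every setting. TM7SF2 (difference 0.36), SREBF1 (0.38), LPIN1 (0.22) and SCD (0.18) rose, and ACSL1 fell by 0.30 on the log2 scale. These were 4 of 35 higher (11.4%) and 1 lower (2.86%), against 4.38% and 6.28% of all genes tested. SREBF1 read 9.87, 9.78 and 9.57 with ETV6 siRNA and 9.30, 9.32 and 9.46 in control arrays (SE 0.085, adjusted p = 0.0146). ACSL1 read 8.12, 8.09 and 8.14 against 8.40, 8.39 and 8.45 (SE 0.071, adjusted p = 0.0208). The SREBF1 arrays lay all above and the ACSL1 arrays all below their controls. No mevalonate pathway gene passed (0 of 7 by limma), 1 of the 7 had an unadjusted p under 0.05 (ACAT2, difference -0.14), and their median difference was -0.08. The comparisons with control all use the same 3 control arrays and are not independent of each other.

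The counts with ETV6 siRNA rested on single arrays. Without ETV6 replicate 1 no lipid gene rose or fell, without ETV6 replicate 2 or 3 there were 2 higher and 0 lower, and without control replicate 1 or 2, or double replicate 2, there were 2 higher. Without control replicate 3 there were 5 higher and 2 lower. Calls among all genes tested also fell, from 340 higher and 487 lower to 154 and 282 without ETV6 replicate 1. They were 221 and 450 without ETV6 replicate 2, and 210 and 259 without ETV6 replicate 3. The losses without an ETV6 replicate were thus not limited to lipid genes. All genes gave 279 and 407 without control replicate 2, and 261 and 419 without double replicate 2. Without control replicate 1 (415 and 495) or 3 (457 and 502) they gave more. For the 23 members that passed in no setting, the estimates do not show that they were unaltered. The interval for SQLE, squalene epoxidase, was -0.25 to 0.03, and that for HMGCS1 was -0.54 to 0.03.

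**Figure D2:**
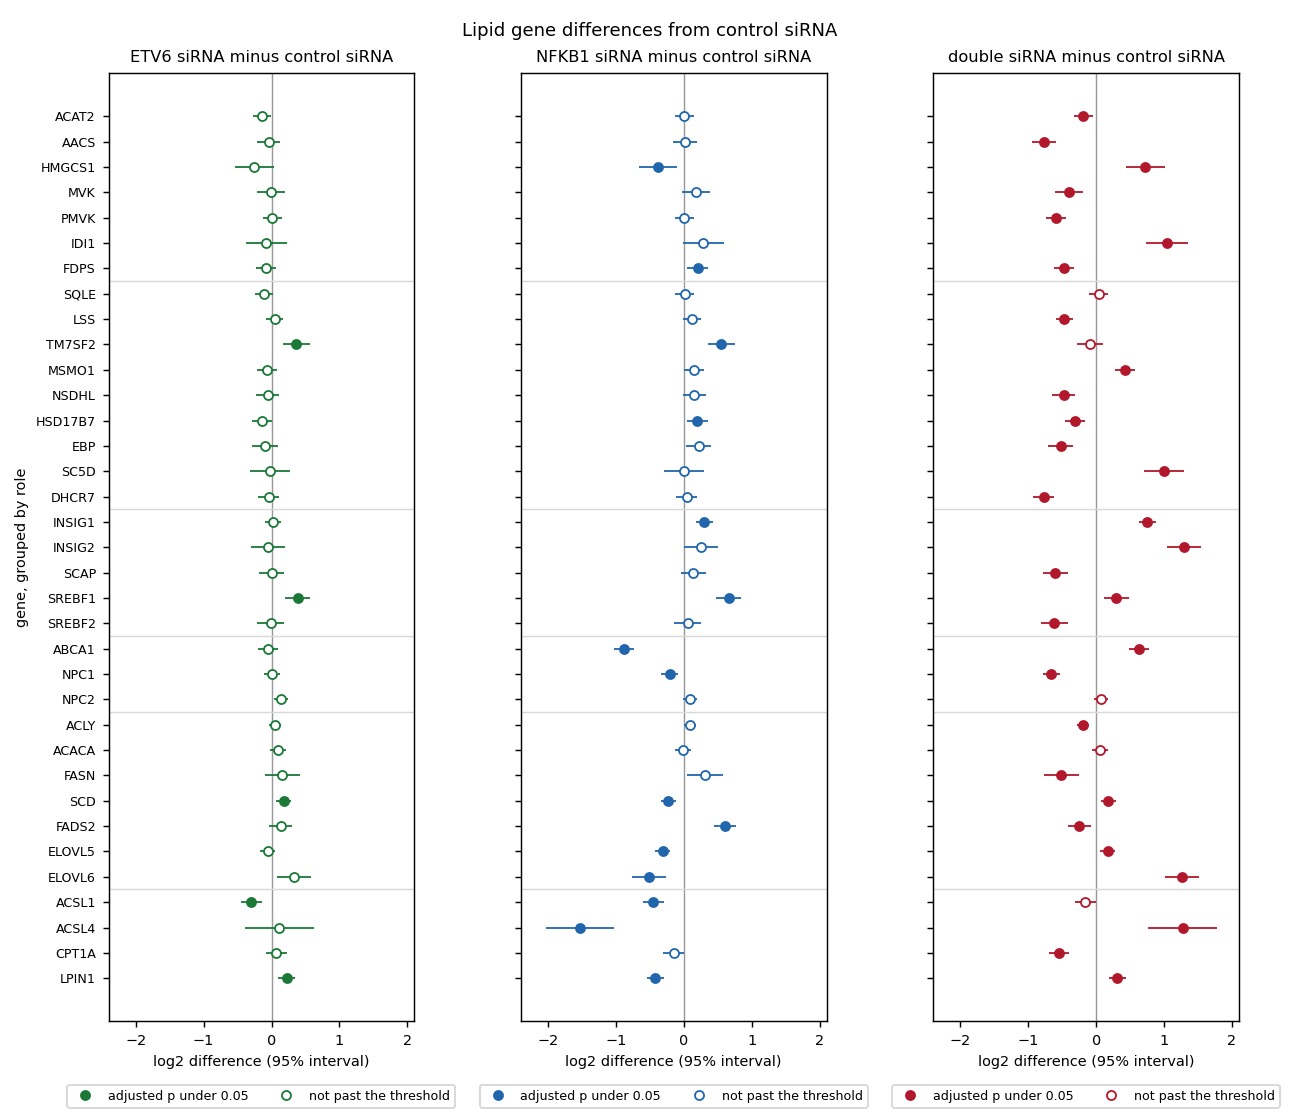
Difference in log2 level from control siRNA (horizontal axis, dot, with 95% interval as a line) for the 35 tested lipid genes (rows, grouped by role), with ETV6 siRNA, NFKB1 siRNA and double siRNA in the 3 panels. Filled dots had an adjusted p under 0.05, which was so for 5 genes with ETV6 siRNA, 15 with NFKB1 siRNA and 30 with double siRNA.

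The single knock-downs were also tested against each other. The difference itself uses no control array, but its SE and adjusted p rest on the spread within all 12 arrays. ACSL4 was 3.13-fold lower with NFKB1 siRNA than with ETV6 siRNA, ELOVL6 1.81-fold, ABCA1 1.78-fold and LPIN1 1.56-fold. FADS2 (0.48), HSD17B7 (0.34), FDPS (0.28) and INSIG1 (0.28) were higher. Of 35 members 7 were higher, beside 13.1% of all genes tested, and 8 were lower, beside 21.8%. Those 8 named genes passed in every setting tried.

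LPIN1 read 10.89, 10.88 and 10.75 with ETV6 siRNA and 10.18, 10.18 and 10.23 with NFKB1 siRNA, on either side of the controls (difference -0.64, SE 0.058, adjusted p = 1.72e-05). ELOVL6 read 9.01, 9.14 and 8.92 against 8.30, 8.18 and 8.04 (difference -0.85, SE 0.115, adjusted p = 0.000266). In both genes every NFKB1 siRNA array was below every ETV6 siRNA array. All 9 sterol branch genes had a difference above 0 (median 0.19), of which 3 passed, HSD17B7, EBP (0.31) and MSMO1 (0.21). EBP is the sterol isomerase, and MSMO1 a methyl oxidase of the same branch. The 3 are 33.3% of the branch, beside 13.1% higher among all genes tested. The median of all genes was -0.002, and 0.08 when each array was shifted to the same median, so small differences of one sign depend on the scale. TM7SF2, which rose with either siRNA, differed by 0.19 between them (95% interval -0.01 to 0.38). SREBF1 differed by 0.28 (adjusted p = 0.0258), a call lost without ETV6 replicate 2 or 3, or NFKB1 replicate 1 or 2.

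**Figure D3:**
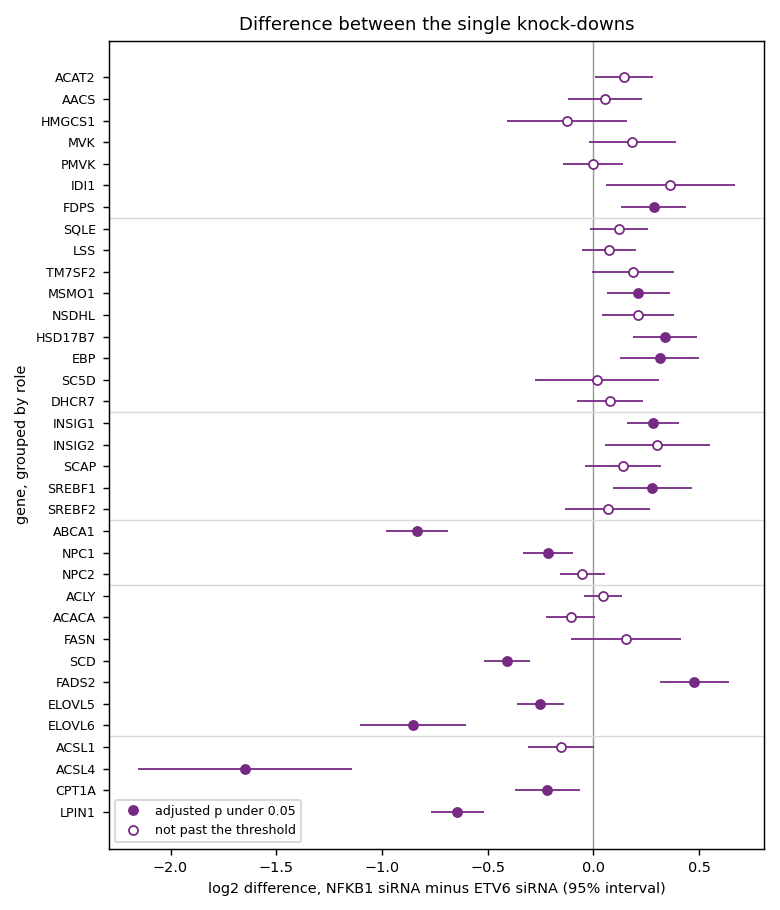
Difference in log2 level between NFKB1 siRNA and ETV6 siRNA (horizontal axis, dot, with 95% interval) for the 35 tested lipid genes (rows, grouped by role); filled dots had an adjusted p under 0.05. ACSL4, ELOVL6, ABCA1 and LPIN1 were lowest, at -1.65, -0.85, -0.83 and -0.64, and FADS2 was highest at 0.48.

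Double siRNA split the sterol pathway. INSIG2 rose 2.45-fold, IDI1 2.06-fold, SC5D 1.99-fold, INSIG1 1.68-fold and HMGCS1 1.65-fold, while DHCR7 and AACS each fell 1.71-fold, NPC1 1.58-fold, SREBF2 1.53-fold and SCAP 1.52-fold. Of the fatty acid genes ACSL4 rose 2.42-fold and ELOVL6 2.39-fold, and FASN and CPT1A fell. In all, 13 of 35 members rose (37.1%) and 17 fell (48.6%). Among all genes tested 31.9% rose and 49.0% fell, so most genes tested changed with double siRNA, and the shares of the members were near the background. Their median difference was -0.16, and that of all genes -0.13.

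Several facts of the arrays moved with this comparison. The poly-A control RNAs read lower on these arrays, as given above, and their part in the changes was not tested. Control replicate 3 was the control nearest to the double siRNA arrays for 24 of the 30 changed members (80%), and for 79.2% of 6274 changed genes of the whole table. Without that array the counts were again 13 higher and 17 lower, and the differences of IDI1 and ACSL4 were larger (1.21 and 1.51). Shifting each array to the same median moved the median of all genes to -0.24, and the members then stood at 11 higher and 19 lower.

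In the mevalonate pathway 2 of 7 tested genes rose (28.6%) and 5 fell (71.4%), beside 31.9% and 49.0% of all genes tested. IDI1 read 10.02, 10.04 and 10.53 in control arrays and 11.31, 11.29 and 11.10 with double siRNA (difference 1.04, SE 0.139, adjusted p = 3.54e-05). HMGCS1 read 8.34, 8.53 and 8.97 against 9.43, 9.36 and 9.21 (difference 0.72, SE 0.13, adjusted p = 0.000303). In both the groups did not overlap, and control replicate 3 was the highest control. The IDI1 probe set belongs to a class that can cross-hybridise with related transcripts, and its other probe set, of the same class, gave 1.20. The second HMGCS1 probe set gave a smaller rise of 0.28.

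The enzymes around them fell. AACS, which activates acetoacetate for lipid synthesis, read 9.92, 9.93 and 9.62 in control arrays and 9.05, 9.13 and 8.98 with double siRNA (difference -0.77, SE 0.079, adjusted p = 6.63e-06). PMVK (-0.59), FDPS (-0.48) and MVK (-0.40), the phosphomevalonate kinase, farnesyl diphosphate synthase and mevalonate kinase, all had their 3 arrays below the controls. ACAT2, the cytosolic thiolase that begins the route, fell by 0.19 on the log2 scale, a call lost without double replicate 3. MVD, the decarboxylase of the same stretch, was below the filter; with no filter it differed by -0.53 (adjusted p = 0.00768 over 10346 genes).

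In the sterol branch 2 of 9 tested genes rose (22.2%) and 5 fell (55.6%), where 31.9% and 49.0% of all genes tested did. SC5D, a sterol desaturase, read 9.20, 9.13 and 9.70 in control arrays and 10.33, 10.41 and 10.27 with double siRNA (difference 0.99, SE 0.134, adjusted p = 3.76e-05). MSMO1 rose by 0.42, from 11.23, 11.39 and 11.30 to 11.68, 11.81 and 11.70. DHCR7, the last enzyme before cholesterol, read 10.66, 10.66 and 10.39 in control arrays and 9.77, 9.89 and 9.72 with double siRNA (difference -0.78, SE 0.071, adjusted p = 3.49e-06). All 3 genes had groups that did not overlap. EBP (-0.52), NSDHL (-0.48), LSS (-0.47) and HSD17B7 (-0.31) fell as well; LSS closes the sterol rings and NSDHL is a sterol dehydrogenase. SQLE, often treated as the second control point of the pathway, differed by 0.04 (95% interval -0.10 to 0.18), and TM7SF2 by -0.09 (-0.29 to 0.10).

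The regulators split in the same comparison. INSIG2 read 7.93, 8.10 and 8.34 in control arrays and 9.44, 9.47 and 9.33 with double siRNA (difference 1.29, SE 0.113, adjusted p = 2.79e-06). INSIG1 read 12.22, 12.28 and 12.43 against 13.09, 13.05 and 13.06 (difference 0.75, SE 0.056, adjusted p = 1.47e-06). Both INSIG genes, which hold the SREBPs back, were far above their controls. SREBF2 read 8.35, 8.32 and 7.98 in control arrays and 7.67, 7.61 and 7.52 with double siRNA (difference -0.62, SE 0.091, adjusted p = 7.37e-05). SCAP fell from 9.87, 9.80 and 9.52 to 9.09, 9.15 and 9.13 (difference -0.60). SREBF1 rose by 0.30 (adjusted p = 0.00679), to 9.63, 9.61 and 9.73, beside a difference of 0.66 with NFKB1 siRNA alone. The stretch of SREBF2 shown above holds both a sterol regulatory element and the NF-kB consensus, and that of IDI1 the ETS elements; whether these bear on the changes was not tested.

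STARD4, a soluble carrier of cholesterol in the cytosol and a known SREBP-2 target, had the largest difference of the 37 genes. It read 6.34, 6.40 and 7.30 in control arrays, 6.55, 7.11 and 6.87 with ETV6 siRNA, 6.77, 6.74 and 6.77 with NFKB1 siRNA, and 9.30, 9.23 and 9.33 with double siRNA. The 9 arrays of the other groups all lay below the filter level, and the double siRNA arrays all above it. Because its mean over 12 arrays was under the filter it was left out of the main test. With no filter the double siRNA difference was 2.61, or 6.09-fold (SE 0.214, adjusted p = 4.65e-06 over 10346 genes). Since the other groups read low, a fold from these levels may be compressed or imprecise. ABCA1 rose by 0.63 (adjusted p = 7.83e-06), NPC1 fell by 0.66 on the log2 scale (from 10.75, 10.78 and 10.62 to 10.09, 10.08 and 10.01), and NPC2 differed by 0.07 (95% interval -0.03 to 0.18).

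**Figure D4:**
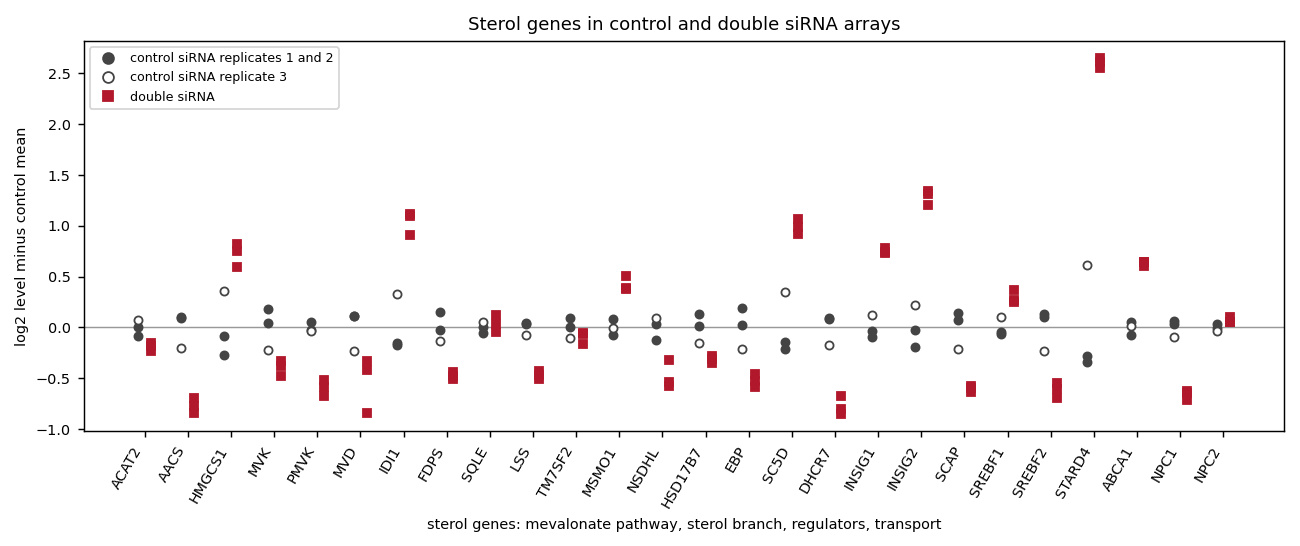
Log2 level minus the control mean (vertical axis) of sterol synthesis, regulator and transport genes (horizontal axis) in each control siRNA array (circles, replicate 3 open) and double siRNA array (squares). STARD4, INSIG2, IDI1 and SC5D lay far above their controls, by 2.61, 1.29, 1.04 and 0.99 on average, and DHCR7 and AACS far below, by -0.78 and -0.77.

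Fatty acid genes with double siRNA went 3 up and 3 down of 7 for synthesis, desaturation and elongation. Each is 42.9%, beside 31.9% higher and 49.0% lower among all genes tested. ELOVL6 read 8.53, 8.56 and 8.98 in control arrays and 10.02, 9.97 and 9.86 with double siRNA (difference 1.26, SE 0.115, adjusted p = 3.34e-06). Its other probe sets, with means below the filter level, gave 1.41 and 1.36. FASN read 10.14, 9.97 and 9.53 against 9.31, 9.39 and 9.40 (difference -0.51, SE 0.119, adjusted p = 0.00187), with control replicate 3 close to the double siRNA arrays. Both genes nonetheless had groups that did not overlap. FADS2 fell by 0.25 on the log2 scale, ACLY fell by 0.19, and ACACA differed by 0.05 (95% interval -0.06 to 0.17).

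Of the acyl-CoA and glycerolipid entry genes, ACSL4 rose from 8.05, 7.70 and 8.57 to 9.30, 9.46 and 9.39 (difference 1.27, SE 0.23, adjusted p = 0.000316). LPIN1 rose from 10.55, 10.60 and 10.71 to 11.00, 10.92 and 10.87 (difference 0.31). CPT1A fell from 11.06, 10.95 and 10.80 to 10.35, 10.43 and 10.39 (difference -0.55). Its 3 dimmer probe sets gave -0.71 to -0.92, and the dimmest of them read low (means 6.44 and 6.18). None of these 3 genes had overlapping groups. ACSL1 differed by -0.16 (adjusted p = 0.0565).

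Some members could not be given one direction, because their probe sets went opposite ways. SCD, the stearoyl-CoA desaturase, fell by 0.23 on the log2 scale with NFKB1 siRNA on its brightest probe set, while its other 3 probe sets gave 0.05, 0.30 and 0.27. With double siRNA the brightest gave 0.18 and the others -0.03, -0.17 and -0.26. ELOVL5, an elongase of polyunsaturated fatty acids, gave -0.31 with NFKB1 siRNA and 0.17 with double siRNA on its brightest probe set, and 0.37 and -0.35 on a much dimmer one. When all probe sets of a gene were averaged neither gene passed in these comparisons. ACLY had probe sets of both signs with double siRNA (-0.19, 0.09 and -0.05). Of 17 changed members with over 1 probe set in that comparison, these were the 3 with an opposite sign. With NFKB1 siRNA there were 3 of 9, HMGCS1 among them.

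The interaction was taken as the difference double siRNA made from control less those made by ETV6 siRNA and by NFKB1 siRNA. It was above 0 for 13 of 35 and below 0 for 18 past the threshold, beside 36.5% and 49.8% of all genes tested, so the shares of the members (37.1% and 51.4%) were near the background. Of the 35, ACSL4 had the largest one (2.69, SE 0.326, adjusted p = 1.99e-05), then ABCA1 (1.57, SE 0.0945, adjusted p = 6.63e-07), ELOVL6 (1.44) and HMGCS1 (1.36). STARD4, left out by the filter, had 2.36 by limma with no filter (SE 0.303, adjusted p = 4.40e-05 over 10346 genes). ACSL4, ABCA1 and ELOVL6 fell with NFKB1 siRNA alone and stood above control with double siRNA. HMGCS1 also stood above control with double siRNA, but its fall with NFKB1 siRNA was lost in 9 of 22 settings. That fall was not seen on its second probe set (0.11), which gave an interaction of 0.55. TM7SF2 (-1.01), FADS2 (-0.99) and FASN (-0.98) went the other way. Of these, FADS2 and TM7SF2 had risen with NFKB1 siRNA alone. SREBF1 had an interaction of -0.75 (adjusted p = 0.000129), with differences from control of 0.38, 0.66 and 0.30 for ETV6, NFKB1 and double siRNA. SQLE (0.14), ACACA (-0.03), ACAT2 (-0.06) and NPC2 (-0.15) did not pass. One of the dimmer INSIG1 probe sets had the opposite sign (-0.13 against 0.43). The target ETV6 itself read higher with double siRNA than with ETV6 siRNA (35.1% against 22.6% of control). A control for the summed siRNA amount was not given. Their part in the interactions was not tested.

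Other genes of these pathways, outside the list of 42, gave the surroundings. Of 26 other sterol genes tested, 1 rose and 11 fell with NFKB1 siRNA (median -0.11, all genes 0.01), where 15.5% of all genes tested rose and 25.1% fell. With double siRNA 13 rose and 10 fell, beside 31.9% and 49.0% of all genes tested. When each array was shifted to the same median the NFKB1 siRNA count became 5 higher and 9 lower. The falls with NFKB1 siRNA were led by LIMA1 (-0.88, adjusted p = 4.77e-06), a protein of the NPC1L1 route of cholesterol uptake, ERLIN1 (-0.47) and ERLIN2 (-0.40), which bind sterols and help degrade HMG-CoA reductase, and NCEH1 (-0.61), a cholesteryl ester hydrolase. With ETV6 siRNA LIMA1 (-0.43) and LBR (-0.46), a sterol reductase of the nuclear envelope, fell, and NCEH1 rose (0.46). Double siRNA raised RNF139 (0.74), a ubiquitin ligase with a sterol-sensing domain, LIPA (0.54), the lysosomal acid lipase, and MBTPS2 (0.62), a protease that cuts SREBPs, and lowered TMEM97 (-0.56), which binds NPC1.

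Of 16 other fatty acid synthesis genes tested, 4 rose with NFKB1 siRNA (15.5% of all genes tested), and 5 rose and 9 fell with double siRNA, shares near the 31.9% and 49.0% of all genes tested. The 4 that rose were OXSM (0.30) and MECR (0.19), both of mitochondrial fatty acid synthesis, ACSS2 (0.46), which makes acetyl-CoA from acetate, and FADS3 (0.27), a desaturase gene next to FADS2. FADS3 also rose with ETV6 siRNA (0.40, adjusted p = 0.00881), the only one of the 16 to do so. With double siRNA the dehydratase genes HACD2 (1.10) and HACD3 (0.77) of the elongation cycle rose, while TECR (-0.67), the reductase of that cycle, and MECR (-0.52) fell.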

How the data were processed

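Expression was measured on Affymetrix arrays from total RNA of U251 cells, 12 samples in 4 groups of 3. The authors deposited log2 probe set levels (3.05 to 14.75); their background correction, summarisation and normalisation were not given in the sources used here. No 2 arrays were identical (0 pairs), and 0 columns of per-sample values were left unused. The platform's probe table named 1 gene for 17319 of 19520 probe sets and several for 857. Entrez identifiers of 17313 matched RefSeq, and 0 symbols changed.

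Genes with a mean below the 25th percentile were left out, except ETV6 and NFKB1. A linear model with a mean for each group was fitted in R 4.3.3 using limma 3.58.1 over the 12 arrays (lmFit, eBayes; 8 residual and 3.41 prior degrees of freedom), two-sided, with Benjamini-Hochberg adjustment over 7760 genes. With 3 against 3 arrays the smallest p of an exact permutation test is 0.1. The fit was tested on simulated data. Members and lists were chosen with earlier results of these data known. Every member could be named, and of each list of other genes the 4 with the smallest adjusted p per comparison with control. The alternatives were other scalings, filters, probe set rules, weights, variance priors, fewer groups, a replicate block and fewer arrays.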

Additional observations from a re-analysis of the deposited data

Results flagged for a closer look

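For 7 of the 35 tested lipid genes the change made by NFKB1 siRNA differed by over 2-fold between cells without and with ETV6 siRNA. This was judged by the interaction test of limma with Benjamini-Hochberg adjustment. ACSL4 changed by -1.53 without ETV6 siRNA and by 1.16 with it (interaction 2.69, SE 0.326, adjusted p = 1.99e-05). ABCA1 changed by -0.88 and 0.68 (interaction 1.57, adjusted p = 6.63e-07), ELOVL6 by -0.52 and 0.92 (1.44, adjusted p = 1.30e-05) and HMGCS1 by -0.38 and 0.98 (1.36, adjusted p = 3.93e-05). On these probe sets the signs without and with ETV6 siRNA were opposite for all 4 genes. For HMGCS1 the fall without ETV6 siRNA had overlapping groups and was lost in 9 of 22 settings. Its second probe set gave 0.11 for that change and 0.55 for the interaction, which is under 2-fold. INSIG2 changed by 0.25 and 1.34 (1.09, adjusted p = 6.69e-05), and SC5D by 0.00 and 1.02 (1.02, adjusted p = 0.000344). TM7SF2 was the one of the 7 with a negative interaction, changing by 0.55 without and -0.46 with ETV6 siRNA (-1.01, adjusted p = 2.29e-05). The cut at 2-fold was close for several genes. FADS2 (-0.99) and FASN (-0.98) lay just under it, and each reached -1.19 in an alternative setting. HMGCS1, INSIG2, SC5D and TM7SF2 came under 2-fold in some settings, at 0.95, 0.89, 0.82 and -0.93. Interactions past the threshold were common in the whole table, 36.5% of genes above 0 and 49.8% below, and the double siRNA arrays that enter each of them also had the lowest poly-A control RNA levels (7.97 to 8.05).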

How the results depend on the processing

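Under the alternatives 203 of 228 counts of changed members stayed within 1.5 times the main count and 25 did not. After shifting arrays to a common median NFKB1 siRNA raised 16 members and stood above ETV6 siRNA for 12; with quantile normalization both were 12, and with array weights 11 and 13. ETV6 siRNA counts of higher members were 2 with every probe set tested, 8 with array weights, 2 with the replicate block and 0 with only the groups compared. Lower members with ETV6 siRNA were 0 with a filter at the 50th percentile, 0 when probe sets of a gene were averaged, 4 with array weights and 0 without control replicate 3 and ETV6 replicate 2 together. Leaving out 1 array gave 0 to 5 higher and 0 to 2 lower with ETV6 siRNA, 4 to 7 and 8 to 9 with NFKB1 siRNA, 13 to 13 and 16 to 18 with double siRNA, 5 to 11 and 7 to 8 for NFKB1 against ETV6 siRNA (11 without control replicate 3), and 13 to 13 and 18 to 19 for the interaction. The NFKB1 siRNA count of 4 higher came without ETV6 replicate 3, NFKB1 replicate 1 or 2, or any double replicate.

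Among changed genes, directions turned only when probe sets of a gene were averaged. SCD then gave 0.0975 with NFKB1 siRNA, -0.0701 with double siRNA and -0.384 for the interaction. ELOVL5 gave 0.0319, -0.0886 and -0.0879, and 0.0645 for NFKB1 against ETV6 siRNA. CDS2 gave -0.153 with NFKB1 siRNA. Of the 30 members changed with double siRNA 26 passed in every setting that tested them, and of 15 with NFKB1 siRNA 9 did. Replicate numbers did not pair the samples: correlations of 18 same-numbered pairs ran from -0.52 to 0.48, with 5 over 0.1. Of 37 other pathway results named as changed 25 passed in every setting that tested them.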

Other observations

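Of 22 genes of glycerolipid synthesis and lipid droplets tested, 1 rose and 15 fell with double siRNA, where 31.9% of all genes tested rose and 49.0% fell. The median was -0.33 beside -0.13 for all genes, and no test of the list was run. MGLL, the monoacylglycerol lipase, fell by 1.17 on the log2 scale, AGPAT2, an acyltransferase of phosphatidate synthesis, by 0.94 and PLIN3, a lipid droplet coat protein, by 0.63, while AGPAT5 rose by 1.19. With NFKB1 siRNA 5 rose and 1 fell, beside 15.5% and 25.1% of all genes tested. HILPDA, a lipid droplet protein that inhibits adipose triglyceride lipase, rose by 0.90 (SE 0.0601, adjusted p = 2.78e-06) and CDS2, a CDP-diacylglycerol synthase, by 0.33, while AGPAT2 fell by 0.38. With ETV6 siRNA LPCAT1 (0.26), AGPAT4 (0.36) and CDS2 (0.22) rose.

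Among fatty acid oxidation genes 3 of 20 tested rose and 12 fell with double siRNA, beside the same 31.9% and 49.0% of all genes tested. ACADM, the medium-chain acyl-CoA dehydrogenase, rose by 0.90 (SE 0.0984, adjusted p = 9.77e-06), whereas ECI1 fell by 0.67, ACOT7 by 0.62 and ACOX3 by 0.61. With NFKB1 siRNA ACADM fell by 0.32 and HSD17B4 by 0.23, and with ETV6 siRNA 0 of 20 passed (limma; 1 of the 20 had an unadjusted p under 0.05, and the smallest adjusted p was 0.0624, for DECR1). The 2 falls with NFKB1 siRNA were lost after shifting arrays to a common median.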
